A study of Oryctolagus cuniculus with 6 samples.

Results

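Interleukin-1 (IL-1) family cytokines are alarm signals of damaged and inflamed tissue. The 10 genes examined were the cytokines IL1A, IL1B, IL18 and IL33, the receptor antagonist IL1RN, the decoy receptor IL1R2, the signalling receptor IL1R1 with its accessory chain IL1RAP, the adaptor MYD88 and the inflammasome sensor NLRP3. They were chosen by name as members of this pathway, with earlier results of these data known. Rows of the deposited tables were taken where the gene identifier equalled the symbol. This matched 9 of the 10 members among 28788 genes in the tables. NLRP3 was found neither by symbol nor through its RefSeq gene number and is not analysed here.

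IL-1 alpha and IL-1 beta bind IL1R1, which recruits IL1RAP and, inside the cell, MYD88 and the IRAK kinases, and this chain ends in NF-kB. IL1RN occupies IL1R1 without signalling, and IL1R2 binds the cytokine but lacks a signalling tail. IL-1 beta and IL-18 are made as inactive precursors that caspase-1 cleaves after an inflammasome such as that of NLRP3 has formed, whereas IL-33 is stored in nuclei and released from damaged cells. In the retina, microglia, infiltrating leukocytes and Mueller glia are known sources and targets of these cytokines.

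The samples were retinas of adult rabbits, 3 normal and 3 from eyes with proliferative vitreoretinopathy (PVR), a scarring of the retina and vitreous. In the PVR eyes the sclera had been opened, some vitreous removed and platelet-rich plasma, a platelet concentrate from blood, injected into the vitreous cavity. The injected plasma is itself a blood product, the strain and the time of collection are not given in the sources used here, and no group with the puncture alone was among the samples. Nothing in these sources says that the samples came from separate animals, so p-values measure the spread between these samples, which may be technical.

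The libraries held between 31904593 and 43035080 counted reads. Photoreceptor genes marked the tissue as retina in all 6 libraries, with an FPKM (fragments per kilobase of gene, scaled to the size of the library) of the photoreceptor arrestin gene SAG from 1341 to 1869. Normal replicate 2 stood apart, since its 8 lens genes summed to an FPKM of 35103, against 13.2 and 16.2 in the other normal samples and 283 to 331 in the PVR retinas. By edgeR, 318 genes had an adjusted p under 0.05 in all samples and 76 without this library.

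Of the 8 members tested, 7 had higher values with PVR. The differences were largest for the cytokines IL1B and IL18, the receptor antagonist IL1RN and the decoy receptor IL1R2. These 4 are also the members that passed the filter on low counts only through the PVR retinas. Their place at the top is thus not independent of that filter. At the spread between these samples none of the differences passed the test across all genes. By the quasi-likelihood test of edgeR, adjusted by Benjamini-Hochberg over all 18697 genes tested, 0 of the 8 members tested had an adjusted p under 0.05, against 1.7% of all genes tested in either direction and 1.09% with PVR higher. At an unadjusted p under 0.05, 7 of the 8 were higher in PVR, against 11.3% of all genes tested. For 4 of these 7 the filter on low counts fixes the direction in part, as set out below. Among all genes that passed the filter as these 4 did, the share was 27.9%. DESeq2, another count test, called 5 members higher in PVR (IL1B, IL1R1, IL1R2, IL18 and IL1RAP), against 6.12% of the genes for which it gave an adjusted p. In simulated counts, DESeq2 found 55 of 100 genes changed by a fold of 2 and 77 of 100 changed by a fold of 4, against 37 and 71 for edgeR, and 71 of its 203 calls were false, against 7 of 115. The run was set to stop unless edgeR met limits on recovery and false calls. The counts were drawn with the spread per gene that edgeR itself had estimated, so the comparison of the tools is not neutral. Simulated means were pooled over both groups, so members near 0 in the normal retinas have no like there. The simulation thus cannot tell whether the DESeq2 calls of the members are false. The groups did not overlap, with PVR above normal, for 5 of the 8 members (IL1B, IL18, IL1RN, IL1R2 and IL1R1) and for 13.4% of all genes tested. All of these 5 except IL1R1 passed the filter only through the PVR retinas, so 13.4% is no matched share for them.

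These counts need the filter on low counts beside them. IL1A did not pass it. The log2 fold change is the fitted difference of PVR over normal, in which 1 is a doubling and a negative value means lower in PVR. IL1B, IL1RN, IL18 and IL1R2 passed it only through the PVR retinas, so a level high enough there was the condition for testing them at all. Of the 939 tested genes that passed in this way, 27.9% had an unadjusted p under 0.05 with PVR higher and 52.9% had a log2 fold change over 1. IL1R1, IL1RAP, IL33 and MYD88 passed the filter in both groups. The median log2 fold change was 2.16 over the 8 members and -0.01 over all genes tested, which is no matched background, since the filter fixes in part the direction of these 4 members.

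**Figure D1:**
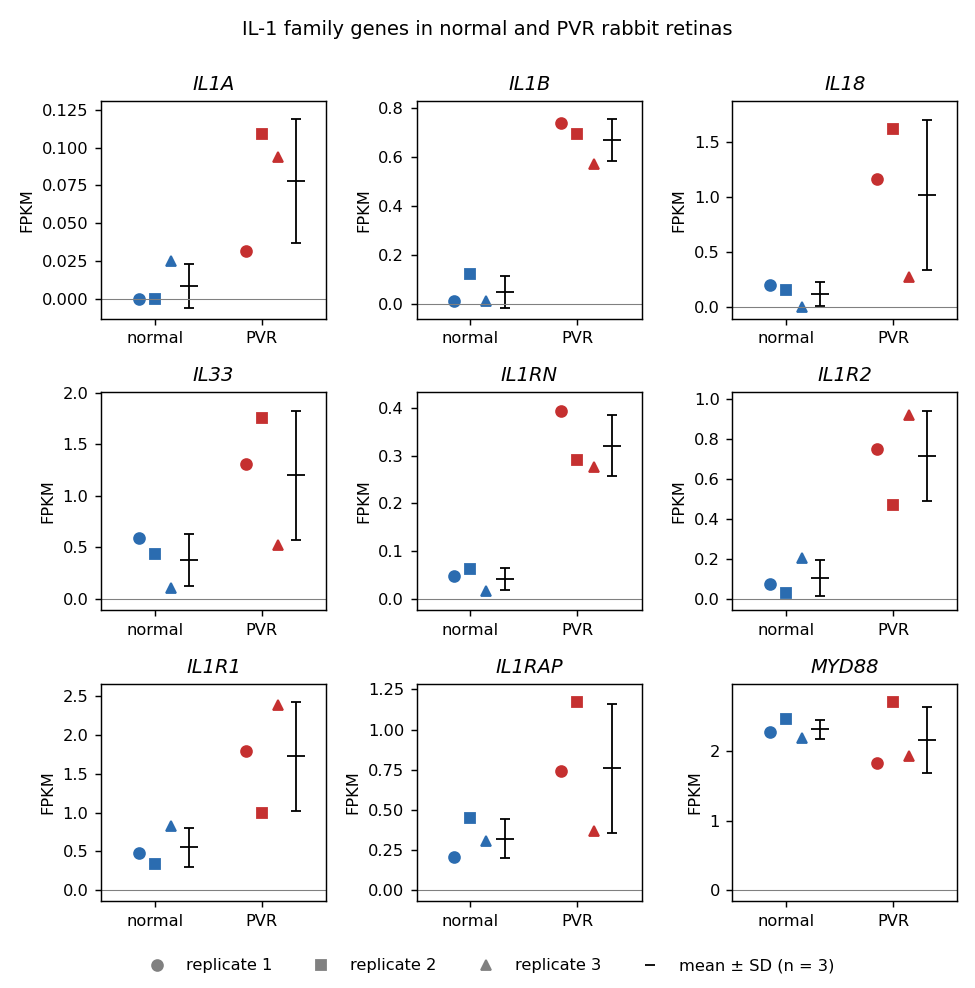
FPKM of the 9 matched members in the 3 normal (blue) and 3 PVR (red) retina samples, with the replicate number as symbol and the mean ± SD in black, each panel on its own linear axis. IL1B, IL1RN, IL1R2, IL1R1, IL18 and IL1A show every PVR sample above every normal sample, whereas IL33, IL1RAP and MYD88 overlap.

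IL1B, the secreted and inflammasome-dependent cytokine, was close to absent from the normal retinas. Normal replicates 1 to 3 had 1, 9 and 1 counts, and PVR replicates 1 to 3 had 42, 40 and 44. The FPKM was 0.0508 ± 0.0633 in normal and 0.67 ± 0.0854 in PVR retinas (SD, n = 3 each), a ratio of the means of 13.2. The PVR samples lay close together, the highest being 1.29 times the lowest, and the highest normal sample was replicate 2, the library with the lens genes. This gave a log2 fold change of 3.58 (standard error 0.78, 95% interval 1.75 to 5.41, adjusted p = 0.0718 from edgeR). Without normal replicate 2 it was 5.34 with an adjusted p of 0.0415, so this library decides on which side of 0.05 the edgeR test falls.

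IL1A, the cytokine that acts from damaged cells without cleavage, was at the edge of detection. It had 0, 0 and 2 counts in the normal retinas and 2, 7 and 8 in the PVR retinas. PVR replicate 1 thus had no more counts than normal replicate 3. Over the pooled counts, 17 against 2, the ratio was 9.06 (95% exact interval 2.15 to 80.8, for counting error only), and no test across genes was made for it.

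IL18, which shares with IL1B the need for cleavage by caspase-1, had 10, 8 and 0 counts in the normal retinas and 47, 66 and 15 in the PVR retinas. The PVR samples differed widely among themselves, with FPKM values of 1.17, 1.62 and 0.277, and replicate 3 was only just above the highest normal sample at 0.204. With this spread the log2 fold change of 2.97 had a standard error of 1.02 and an adjusted p of 0.165 from edgeR.

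IL33, the nuclear alarmin, was the most abundant of the 4 cytokines in the normal retinas, with FPKM values of 0.594, 0.436 and 0.102. It reached 1.31, 1.76 and 0.523 in the PVR retinas. PVR replicate 3 was below normal replicate 1, so the groups overlapped. Its log2 fold change was 1.58 (standard error 0.66, 95% interval 0.03 to 3.12, adjusted p = 0.228 from edgeR), and it was the one member with an unadjusted p under 0.05 in edgeR that DESeq2 tested and did not call (adjusted p = 0.0711).

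Both brakes of the pathway were also higher in each PVR sample. IL1RN, the receptor antagonist, had 3, 4 and 1 counts in the normal retinas and 20, 15 and 19 in the PVR retinas, a mean FPKM of 0.0418 ± 0.0236 against 0.321 ± 0.0636 (SD, n = 3 each). Its log2 fold change was 2.80 (standard error 0.66, adjusted p = 0.0819 from edgeR), and DESeq2 left its adjusted p without a value. Without normal replicate 2 it was 3.20 with an adjusted p of 0.191. IL1R2, the decoy receptor, had 7, 3 and 20 counts in the normal retinas and 58, 37 and 96 in the PVR retinas. Its mean FPKM was 0.103 ± 0.0913 in the normal and 0.714 ± 0.226 in the PVR retinas (SD, n = 3 each), a ratio of 6.9. In edgeR the log2 fold change was 2.72 with a standard error of 0.66 and an adjusted p of 0.0869. Normal replicate 3 was the highest normal sample for IL1R2, and without it the log2 fold change was 3.68 with an adjusted p of 0.035. With one of the other samples left out it ran from 2.30 (without normal replicate 2, adjusted p = 0.195) to 2.95 (without PVR replicate 2, adjusted p = 0.14), and the adjusted p was highest, 0.297, without PVR replicate 1.

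IL1R1, the signalling receptor, was well counted in every library. It had 178, 132 and 318 counts in the normal retinas and 543, 307 and 979 in the PVR retinas. The FPKM values were 0.479, 0.339 and 0.833 in the normal retinas and 1.79, 0.996 and 2.39 in the PVR retinas, so that the lowest PVR sample was just above the highest normal sample. The highest sample was 2.45 times the lowest within the normal group and 2.4 times within the PVR group, close to the ratio of 3.13 between the group means. The log2 fold change was 1.59 (standard error 0.41, 95% interval 0.64 to 2.55, adjusted p = 0.0973 from edgeR).

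IL1RAP, the accessory chain that IL1R1 and the IL-33 receptor share, had FPKM values of 0.206, 0.448 and 0.303 in the normal retinas and 0.742, 1.17 and 0.366 in the PVR retinas. PVR replicate 3 was below normal replicate 2, the library with the lens genes, and above the other normal samples. Its log2 fold change was 1.17 (standard error 0.45, adjusted p = 0.196 from edgeR), and it ran from 0.72 without PVR replicate 2 to 1.52 without normal replicate 2.

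MYD88, the adaptor of IL-1 family and Toll-like receptors, was the most abundant member in both groups. It had FPKM values of 2.28, 2.46 and 2.19 in normal and 1.83, 2.7 and 1.93 in PVR retinas. The mean was 2.31 ± 0.138 in the normal and 2.15 ± 0.473 in the PVR retinas (SD, n = 3 each), and the groups overlapped. The log2 fold change was -0.18 (standard error 0.21, adjusted p = 0.648 from edgeR), with a 95% interval from -0.66 to 0.31. It was the one tested member with a negative value.

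The difference of the mean FPKM had, in an exact two-sided permutation test, p = 0.1 for IL1A, IL1B, IL1RN, IL1R1, IL1R2 and IL18, the lowest value this test can reach with 3 samples in each group. The same exact test gave p = 0.2 for IL1RAP and IL33 and p = 0.6 for MYD88.

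**Figure D2:**
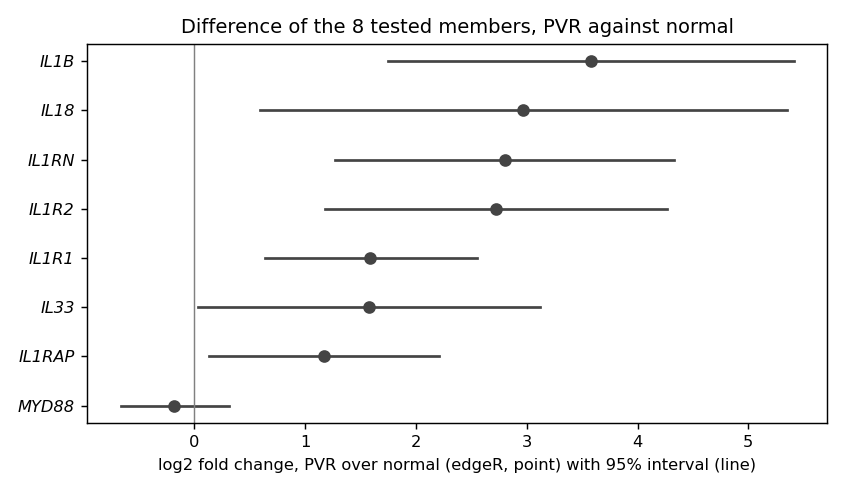
Log2 fold change of PVR over normal (points) with the 95% interval (lines) for the 8 tested members, from edgeR. The values run from 3.58 for IL1B to -0.18 for MYD88, whose interval is the only one that includes 0, and none of the 8 had an adjusted p under 0.05.

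Compared per length, the order of the mean FPKM in the normal retinas was MYD88, IL1R1, IL33, IL1RAP, IL18, IL1R2, IL1B, IL1RN and IL1A. MYD88 was clear of all others, its lowest normal sample being above the highest normal value of IL1R1, 0.833. Each other pair of neighbours in this order overlapped in its ranges, except IL1RAP and IL18, which the lowest value of IL1RAP, 0.206, and the highest of IL18, 0.204, barely kept apart. In the PVR retinas the order was MYD88, IL1R1, IL33, IL18, IL1RAP, IL1R2, IL1B, IL1RN and IL1A. Here the ranges of neighbours overlapped all the way from MYD88 to IL1B. IL1RN was below IL1B in each PVR sample, and IL1A was below IL1RN.

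The ratio of decoy to signalling receptor was taken within each library, a measure chosen after the values were seen. The FPKM of IL1R2 was 0.154, 0.0893 and 0.247 of that of IL1R1 in the normal retinas and 0.42, 0.473 and 0.385 in the PVR retinas. The ratio was thus above that of every normal sample in each PVR sample. IL1R2 passed the filter only through the PVR retinas and had 7, 3 and 20 counts in the normal retinas. This separation was therefore in part fixed by the filter. The ratio of IL1RN to IL1B was 0.532, 0.419 and 0.482 in the PVR retinas, a narrow range. In the normal retinas it was 3.35, 0.496 and 1.12, on counts of 1 to 9 for either gene, so the groups overlapped.

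Within a group the members ranked the libraries differently. IL1R1 and IL1R2 were highest in replicate 3 and lowest in replicate 2 within both groups, an order that 6.32% of all genes tested shared. IL18 and IL33 were lowest in replicate 3 within both groups, and highest in normal replicate 1 and PVR replicate 2, an order found in 5.09% of all genes tested. PTPRC, the common leukocyte antigen, was in this second order too, with FPKM values of 0.786, 0.691 and 0.19 in the normal retinas and 1.7, 2.88 and 0.829 in the PVR retinas. ITGAM, another leukocyte marker, was not, being highest in replicate 2 and lowest in replicate 3 of both groups. By FPKM, most of the 14 matched microglia and macrophage markers described below were not in that second order either. These orders and markers were picked after the values were seen.

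The rest of the IL-1 pathway was taken from 5 lists. Of the other IL-1 family cytokines, 5 of 6 were matched and none had enough counts to be tested. IL36G had 0 counts in the normal retinas and 2, 0 and 1 in the PVR retinas, and IL36A had 1 count in each normal sample and 0 in each PVR sample. IL36RN and IL37 had no counts in any library. At this depth the IL-36 branch was not detectable as different between the groups.

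Of the other receptors and decoys, 7 of 8 were matched and 4 tested, with 0 higher and 0 lower at an adjusted p under 0.05 from edgeR, 0 at an unadjusted p under 0.05 and 0 with DESeq2. IL18BP, the soluble trap of IL-18, was more abundant than any member, at an FPKM of 11.3 ± 1.68 in the normal and 14.5 ± 1.12 in the PVR retinas (SD, n = 3 each), with a log2 fold change of 0.29 (95% interval -0.09 to 0.67, adjusted p = 0.334 from edgeR). IL1RAPL1, a neuronal relative of IL1RAP, had a log2 fold change of 0.10. The IL-33 receptor IL1RL1, named after its values were seen, had 4, 0 and 0 counts in the normal and 0, 7 and 0 in the PVR retinas.

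Of the other inflammasome genes, 11 of 17 were matched, and among the unmatched ones was PYCARD, the adaptor that joins sensors to caspase-1. None of the 8 tested genes was higher or lower at an adjusted p under 0.05 from edgeR. At an unadjusted p under 0.05, 1 of the 8 was higher, near the share of 11.3% over all genes tested. The same gene was called higher by DESeq2, against 6.12% of the genes for which it gave an adjusted p. It was TXNIP, a partner of NLRP3, with FPKM values of 4.25, 4.4 and 2.56 in the normal and 6.25, 6.02 and 6.4 in the PVR retinas and a log2 fold change of 0.66 with an adjusted p of 0.166 in edgeR. NEK7, a kinase that NLRP3 needs for assembly, had a log2 fold change of 0.17. CASP1, the protease itself, was named after its values were seen. It had 24, 11 and 1 counts in the normal and 9, 9 and 4 in the PVR retinas, with a log2 fold change of -0.57 and a 95% interval from -2.85 to 1.71, and GSDMD, the pore protein it cleaves, had one of 0.25 with an interval from -2.04 to 2.53. At these counts neither direction could be told.

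The chain from the receptor to NF-kB showed no difference that passed the test. All 14 of its genes were tested, with 0 higher and 0 lower at an adjusted p under 0.05 from edgeR, 0 at an unadjusted p under 0.05 and 0 with DESeq2. The median log2 fold change was -0.10, and the values ran from -0.59, for the kinase IRAK4, to 0.18. The intervals were wide for some of these genes, such as IRAK3, an inhibitory member of the kinase family, at -0.18 with an interval from -1.82 to 1.46 (both were picked after their values were seen). TAB2, a bridge between TRAF6 and the kinase MAP3K7, had an FPKM of 32.1 ± 2.08 in the normal and 32.5 ± 3.63 in the PVR retinas (SD, n = 3 each). TOLLIP, an inhibitor of IRAK1, had a log2 fold change of -0.18 (95% interval -0.52 to 0.15).

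Of the genes known to be induced by IL-1, 25 of 26 were matched and 16 tested. The 4 genes CEBPD, SOCS3, CXCL8 and NFKBIZ rose in PVR at an adjusted p under 0.05 from edgeR, and none fell, against 1.09% of all genes tested with PVR higher. At an unadjusted p under 0.05, 8 were higher and 1 was lower, against 11.3% of all genes higher, and DESeq2 called 8 higher, against 6.12%. The median log2 fold change of the 16 was 1.49. The list was chosen with earlier results of these data known, so these counts and the median are no independent evidence of a response to IL-1. Many of these genes also respond to other cytokines, and 3 of the 16, CXCL8 among them, passed the filter only through the PVR retinas.

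CEBPD, a transcription factor of the acute phase, had FPKM values of 4.23, 5.54 and 4.25 in the normal and 40.1, 34.2 and 43.2 in the PVR retinas. Its log2 fold change was 2.99 (standard error 0.17, adjusted p = 0.000652 from edgeR). SOCS3, the feedback inhibitor of IL-6 type cytokine receptors, had FPKM values of 0.589, 0.664 and 0.653 in the normal and 6.52, 7.24 and 4.97 in the PVR retinas, which is 3.22 on the log2 scale (standard error 0.21, adjusted p = 0.0013 from edgeR). Both kept an adjusted p under 0.05 in all 15 other settings.

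CXCL8, the neutrophil attractant interleukin-8, had 2, 25 and 1 counts in the normal and 383, 405 and 369 in the PVR retinas. As for IL1B, normal replicate 2 was the highest of the normal retinas. The log2 fold change was 5.47 (standard error 0.88, adjusted p = 0.0359 from edgeR), and 8.01 (adjusted p = 0.00167) without that library. The call was lost without normal replicate 1 (adjusted p = 0.0973), PVR replicate 1 (0.202) or PVR replicate 2 (0.0858).

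NFKBIZ, a nuclear co-factor of NF-kB, had FPKM values of 2.09, 1.91 and 3.25 in the normal and 8.1, 6.63 and 6.43 in the PVR retinas. Its log2 fold change was 1.48 (standard error 0.23, adjusted p = 0.0332 from edgeR). This call was lost without normal replicate 1 (adjusted p = 0.112), normal replicate 2 (0.102), PVR replicate 1 (0.203) or PVR replicate 2 (0.0722).

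The other response genes did not pass the test in edgeR, and those named here were picked after their values were seen. DESeq2 called 4 of them higher in PVR. Among these were CEBPB, a transcription factor related to CEBPD (log2 fold change 1.51, edgeR adjusted p = 0.051), ICAM1, an adhesion molecule for leukocytes (2.08, 0.133), and BIRC3, an NF-kB target that blocks cell death (2.48, 0.103), each with every PVR sample above every normal sample. The fourth was LIF, a cytokine of the IL-6 type, which had 6, 0 and 4 counts in the normal and 65, 51 and 24 in the PVR retinas, and its log2 fold change of 3.92 had an adjusted p of 0.0792 in edgeR. IL6 itself had 3, 0 and 5 counts in the normal and 2, 1 and 2 in the PVR retinas. NFKBIA, which encodes the NF-kB inhibitor that IL-1 rapidly induces, had a log2 fold change of 0.07 with a 95% interval from -0.30 to 0.43, and TNFAIP3, another feedback inhibitor, one of -0.05 with an interval from -0.64 to 0.53. PTGES, a prostaglandin E synthase, had the lowest value, -0.78, with every PVR sample below every normal sample (adjusted p = 0.173 from edgeR).

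**Figure D3:**
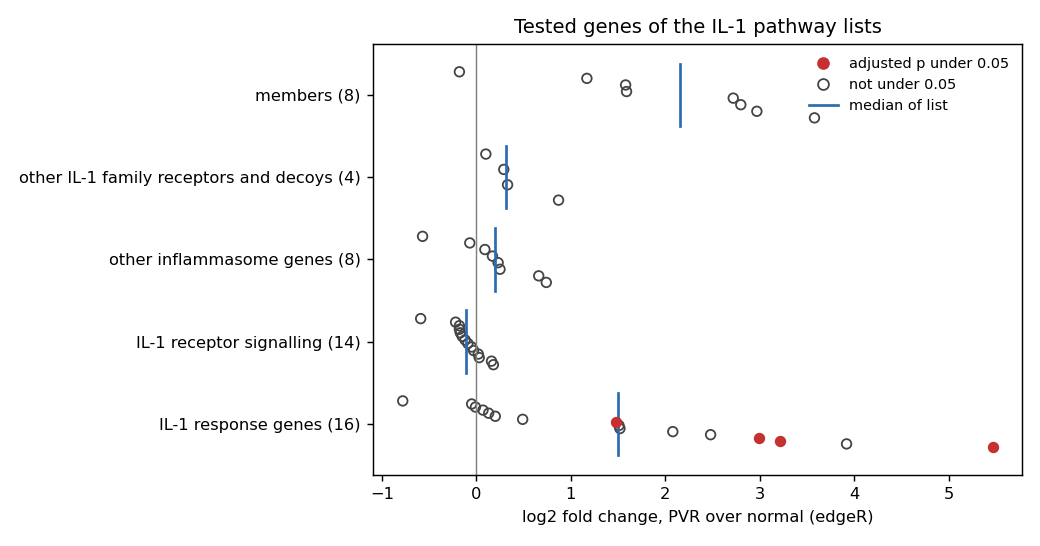
Log2 fold change of PVR over normal for each tested gene of the members and of 4 pathway lists, with the number tested in brackets, filled points for an adjusted p under 0.05 from edgeR and a blue line at the median of each list. The medians are 2.16 for the members, 1.49 for the IL-1 response genes and between -0.10 and 0.31 for the other lists, and the 4 filled points all belong to the response genes. The medians are not matched, since 4 of 8 members and 3 of 16 response genes passed the filter only through the PVR retinas. In each other list 0 or 1 gene did so. All lists were chosen with earlier results of these data known.

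The sums of the neutrophil list and of the microglia and macrophage list were higher in each PVR sample. T cell and platelet sums overlapped between the groups, and erythroid sums were lower in PVR. Of 7 matched neutrophil markers, 4 were tested and 3 rose in PVR at an adjusted p under 0.05 from edgeR, against 1.09% of all genes tested. These 3 were S100A8, S100A9 and S100A12, calcium-binding proteins that myeloid cells secrete. S100A8 and S100A12 passed the filter only through the PVR retinas. S100A8 had 24, 5 and 2 counts in the normal and 208, 209 and 136 in the PVR retinas, and its log2 fold change of 4.27 had an adjusted p of 0.0486 in edgeR. The summed FPKM of the list ran from 1.03 to 3.42 in the normal and from 15.3 to 34.8 in the PVR retinas, with replicate 3 the lowest in each group, and nearly all of this sum came from the 3 S100 genes. CXCR2, a receptor for CXCL8 and the other tested gene of the list, had a log2 fold change of 0.52 with overlapping groups (adjusted p = 0.619 from edgeR). Of the defining genes, MPO was at 0 in all libraries, and CSF3R had 2, 0 and 1 counts in the normal and 6, 6 and 2 in the PVR retinas. CAMP, also not tested, had 4, 7 and 4 counts in the normal and 8, 3 and 5 in the PVR retinas.

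The 14 matched microglia and macrophage markers summed to an FPKM of 38.6, 38.4 and 17.9 in the normal and 58.4, 66.2 and 48.3 in the PVR retinas. All 14 had positive log2 fold changes, with a median of 0.95 and the highest at 1.62. By edgeR 0 had an adjusted p under 0.05 and 8 had an unadjusted p under 0.05, against 11.3% of all genes tested with PVR higher, and DESeq2 called 5, against 6.12%. In bulk retina, more cells of a type and more RNA per cell cannot be told apart. The part of these cells in the values of the members was not tested.

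T cell markers overlapped between the groups, with summed FPKM from 0.254 to 1.36 in the normal and from 0.288 to 1.74 in the PVR retinas, and no counts of CD3E in replicate 3 of either group. Platelet markers, which bear on the injected plasma, summed to between 0.827 and 1.55 in the normal and between 1.28 and 1.78 in the PVR retinas. This sum joins genes that went opposite ways. Each PVR sample was above every normal sample for GP9 (log2 fold change 0.79). It was below for ITGA2B (-0.53) and TUBB1 (-0.94), and PPBP (1.80) overlapped. By edgeR 0 of these had an adjusted p under 0.05. The erythroid sum was lower in each PVR sample, at 13.2 to 22.1 against 32.1 to 38.8. Nearly all of it came from HBA, at 12.8 to 21.8 in the PVR and 31.6 to 38.2 in the normal retinas. For ALAS2, the other tested gene of that list, the groups overlapped. The summed FPKM ran from 1005 to 1326 in the normal and from 1007 to 1099 in the PVR retinas for Mueller glia markers, from 92.8 to 96.6 and from 107 to 111 for endothelial markers, and from 95.3 to 151 and from 71.6 to 74.1 for pigment epithelium markers. In these lists GLUL and RLBP1 of Mueller glia, CDH5 and VWF of endothelium and LRAT of pigment epithelium fell at an adjusted p under 0.05 from edgeR, although CDH5 passed the filter only through the normal retinas. The endothelial sum came mostly from KDR and FLT1, and the median log2 fold change of that list was -1.29. GFAP, the intermediate filament of reactive glia, was above every normal sample in each PVR sample, and its log2 fold change of 1.39 had an adjusted p of 0.143 in edgeR.

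**Figure D4:**
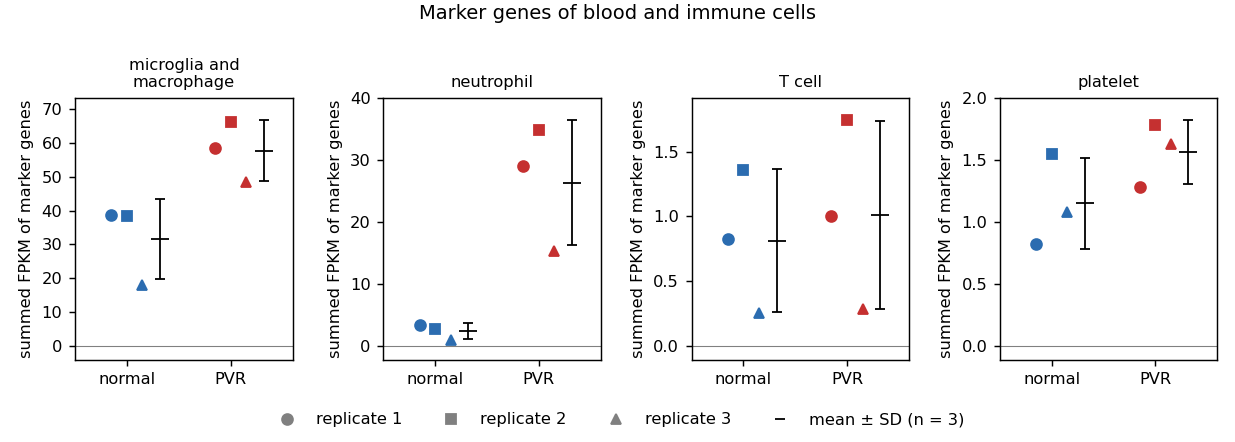
Summed FPKM of the matched marker genes of 4 cell types in the 3 normal (blue) and 3 PVR (red) samples, with the replicate number as symbol and the mean ± SD in black. The neutrophil sum, nearly all from 3 S100 genes, and the microglia or macrophage sum are higher in every PVR sample than in every normal sample, whereas T cell and platelet sums overlap.

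**Figure D5:**
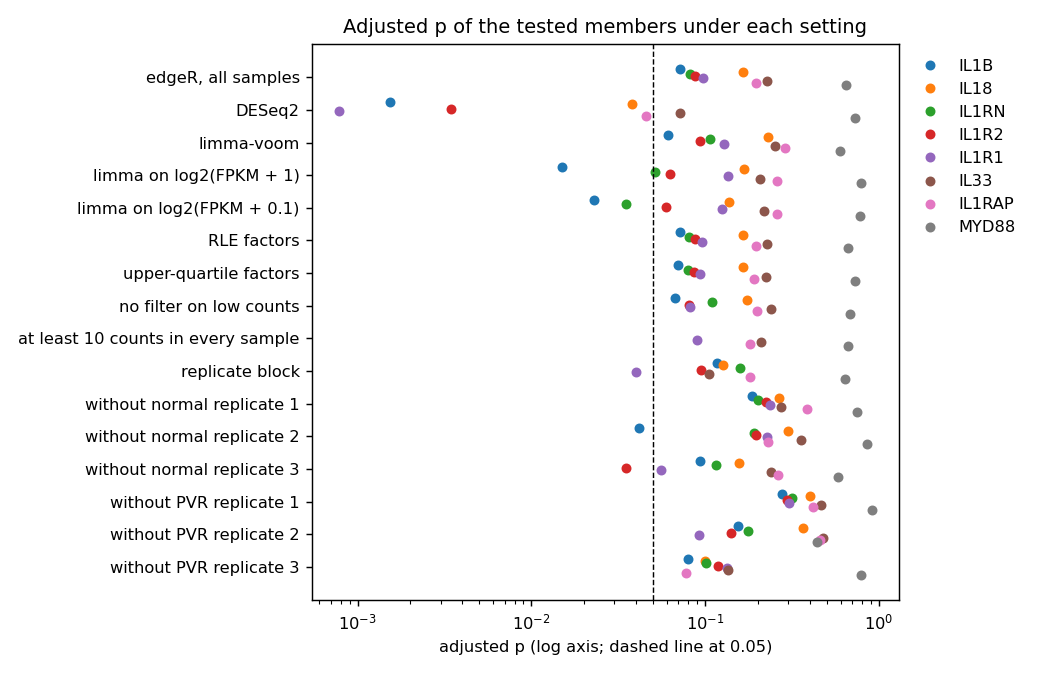
Adjusted p of the 8 tested members, on a log axis, in the edgeR test of all samples and in the 15 other settings, with a dashed line at 0.05. DESeq2 puts 5 members under the line, log2(FPKM + 0.1) puts 2 there, and no other setting puts more than 1.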

How the data were processed

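Polyadenylated RNA of 6 rabbit retina samples, 3 normal and 3 PVR by their titles, was sequenced. Per the labels, fastp, HISAT2 and HTSeq were used, and the paper names OryCun2.0 as the genome. The strand setting and the annotation release are not given in the sources used here, so no coordinates are printed. The authors deposited raw counts per gene without normalization. The deposited FPKM values are these counts divided by gene length and total count (implied lengths differed between samples by at most 4.24e-09 in relative terms).

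Counts were tested in R 4.3.3 with edgeR 4.0.16 (default filter, that is about 10 counts in a library of median size or 0.253 CPM in at least 3 samples, TMM factors, quasi-likelihood test of condition alone, Benjamini-Hochberg adjustment over 18697 of 28788 genes). The threshold was an adjusted p of 0.05. Standard errors are the log2 fold change divided by the square root of F. Non-overlap was judged on TMM-scaled CPM. Alternatives used DESeq2 1.42.0 and limma 3.58.1. SciPy 1.17.1 gave exact permutation tests, and Python 3.11.15 with pandas 2.3.3 and matplotlib 3.10.9 gave tables and figures.

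The members, the 5 pathway lists and the 10 marker lists were chosen with earlier results of these data known. Genes absent by symbol were sought through the gene numbers of RefSeq's mOryCun1.1 annotation, used for names only. Named pathway genes are those with an adjusted p under 0.05, or else the 2 with the highest mean FPKM of a list. Other genes are marked as named after their values were seen. The summed level of the photoreceptor list is not reported here.

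Samples of a group differed by more than counting noise (chi-square per degree of freedom 19.6 to 185), so none was treated as the same library deposited again. This does not show that they came from separate animals. The tests were tried on simulated counts with 200 of 18335 genes changed.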

Additional observations from a re-analysis of the deposited data

How the results depend on the processing

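Over the 15 other settings, the 7 tested members with a positive log2 fold change kept that direction in every setting in which they were tested, and MYD88 stayed negative in all 15. All settings draw on the same samples, so a kept direction is no independent evidence. For IL1B, IL1RN, IL18 and IL1R2, most settings also share the filter that these genes passed only through the PVR retinas. The number of members with an adjusted p under 0.05, 0 in the edgeR test of all samples, was 5 with DESeq2, 1 on log2(FPKM + 1) (IL1B), 2 on log2(FPKM + 0.1) (IL1B and IL1RN) and between 0 and 1 with single samples left out. IL1B was called without normal replicate 2 and IL1R2 without normal replicate 3. IL1RN was not called with DESeq2, which gave it no adjusted p. With at least 10 counts in every sample, 4 members were left to test. The number of all genes under 0.05, 318, was 1804 with DESeq2 and between 22 (without PVR replicate 1) and 650 (without PVR replicate 3) with single samples left out. That of the pathway lists, 4, was 9 with DESeq2 and between 2 and 5 with single samples left out. The cause of these differences was not tested.

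With the replicate number as a block, 92 genes and 1 member (IL1R1, adjusted p = 0.0398) were under 0.05. The deviations of same-numbered samples correlated at -0.013, 0.073 and 0.042, so the numbers were not taken to pair the samples. The block also ended the calls of CXCL8 (adjusted p = 0.0569) and NFKBIZ (0.0743), while CEBPD and SOCS3 were still under 0.05.

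Depth limits what can be said of IL1A, CASP1 and the IL-36 genes, which rest on 0 to 24 reads per library. It also limits IL1RN, with 1 to 20 reads per library, and GSDMD, with 1 to 28. The normal values of IL1B (1 to 9 reads), IL18 (0 to 10) and IL1R2 (3 to 20) are as low. The interval given for IL1A covers counting error alone, as PCR reads without molecular identifiers are not separate molecules.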
